A study of Mus musculus with 11 samples.

Results

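Peaks of 5 TFs were examined at 10 genes of naive pluripotency, Klf2, Klf4, Klf5, Esrrb, Tbx3, Zfp42, Tfcp2l1, Nr5a2, Nr0b1 and Fbxo15. The members were all ChIP-seq peaks whose midpoint lay within the gene body or within 50 kb on either side of it, on the mouse genome build mm9. This rule took 516 of the 1004445 deposited peaks, 252 from EpiSC culture and 264 from activin-free culture, and no peak fell into the windows of 2 of these genes. All 10 genes had members, and for background a window of the same kind was built for each of the 22367 protein-coding genes of the annotation.

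EpiSCs (epiblast stem cells) are pluripotent cells derived from the postimplantation epiblast. A 129/Sv EpiSC line was grown without feeders in N2/B27 medium with FGF2 and 20 ng/ml activin, and in the activin-free arm activin was withheld for the 18 h before harvest. In either culture, cells were transiently transfected with a plasmid driven by the CAG promoter that encodes ZIC2, OTX2, SOX2, POU5F1 or POU3F1 fused to the biotin acceptor peptide BLRP together with the biotin ligase BirA, and the tagged TF was collected on streptavidin. The bound TF was therefore an added, tagged copy, produced from a plasmid beside the endogenous protein, and a single cell line was used. There was 1 library for each TF in each culture, which leaves all values without a replicate error, and cultures or TFs could not be compared by a test.

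Pluripotent cells exist in a naive state, as in embryonic stem cells from the preimplantation embryo, and a primed state, as in EpiSCs. The naive state is held by a network in which KLF factors, ESRRB, TBX3, TFCP2L1 and NR5A2 sustain one another and the core factors POU5F1, SOX2 and NANOG, and most of these genes are known to be low or silent in primed cells. POU5F1 and SOX2 operate in both states, whereas ZIC2, OTX2 and POU3F1 are associated with the primed epiblast. The peak lists measure where a TF was found and hold no measure of the expression of these genes.

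Each peak carries a MACS score, which is -10 log10 of the p-value against the input, and no peak scored under 50. The lists held 62457 to 126908 peaks with median scores of 95.5 to 213. Read depth is unknown, so a longer list or a higher score in one library may also come from deeper sequencing, and the part of depth in the differences below was not tested. For this reason percentiles of scores within their own list are given beside many of the scores, and the order of the cultures by percentile can differ from that by score. Scores of exactly 3100 recur in every list, in 2 to 3117 peaks, and are read here only as very high. Intervals are 95% intervals that cover counting error only.

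Sequences under 8 of the peaks are shown here as examples, each 200 bp around the peak midpoint on the plus strand of mm9. They do not measure how often peaks hold a binding sequence. An octamer, for example, was found at only 12.5% of EpiSC and 10.3% of activin-free POU5F1 peaks at these genes. Those at Klf5 and Nr5a2 belong to the sites with the most TFs, and the other six were chosen after their values were seen. Capitals mark the short sequence of the profiled TF. This is CAGCAGG for ZIC2 (read on the minus strand at Klf4, positions 132 to 138), ACAAAG for SOX2 (minus strand at Nr5a2) and the octamers ATGCAAAT or ATGCATAT for POU5F1 (both on the minus strand here). At Tbx3, where no octamer was found, capitals mark a stretch of 37 bp with purines and pyrimidines in alternation.
Klf4 promoter, ZIC2, chr4:55544384-55544583: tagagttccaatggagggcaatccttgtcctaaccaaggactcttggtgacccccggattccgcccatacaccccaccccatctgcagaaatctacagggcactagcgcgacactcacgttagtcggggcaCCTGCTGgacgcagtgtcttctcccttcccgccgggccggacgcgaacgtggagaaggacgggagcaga
Klf2 upstream, SOX2, chr8:74839934-74840133: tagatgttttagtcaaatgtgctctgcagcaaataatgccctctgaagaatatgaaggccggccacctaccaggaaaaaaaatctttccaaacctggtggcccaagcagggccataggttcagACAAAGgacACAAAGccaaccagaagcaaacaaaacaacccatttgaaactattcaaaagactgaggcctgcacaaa
Klf4 downstream, SOX2, chr4:55536261-55536460: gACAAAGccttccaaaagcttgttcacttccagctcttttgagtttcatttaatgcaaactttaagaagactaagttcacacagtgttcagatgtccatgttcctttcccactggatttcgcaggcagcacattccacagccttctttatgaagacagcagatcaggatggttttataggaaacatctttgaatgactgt
Klf5 downstream, SOX2 in activin-free culture, chr14:99739030-99739229: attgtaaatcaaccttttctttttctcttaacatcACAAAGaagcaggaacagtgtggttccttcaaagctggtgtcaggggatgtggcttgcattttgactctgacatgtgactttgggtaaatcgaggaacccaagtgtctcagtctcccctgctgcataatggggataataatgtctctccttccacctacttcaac
Nr5a2 internal promoter, SOX2 in activin-free culture, chr1:138850401-138850600: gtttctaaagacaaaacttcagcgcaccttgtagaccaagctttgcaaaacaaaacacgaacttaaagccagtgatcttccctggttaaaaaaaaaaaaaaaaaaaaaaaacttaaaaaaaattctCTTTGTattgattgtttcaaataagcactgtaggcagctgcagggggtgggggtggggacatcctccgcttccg
Esrrb intron, POU5F1, chr12:87709100-87709299: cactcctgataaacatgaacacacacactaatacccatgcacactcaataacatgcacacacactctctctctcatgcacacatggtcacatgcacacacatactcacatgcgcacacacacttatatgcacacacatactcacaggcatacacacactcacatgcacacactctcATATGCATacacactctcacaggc
Zfp42 downstream, POU5F1 in activin-free culture, chr8:44341169-44341368: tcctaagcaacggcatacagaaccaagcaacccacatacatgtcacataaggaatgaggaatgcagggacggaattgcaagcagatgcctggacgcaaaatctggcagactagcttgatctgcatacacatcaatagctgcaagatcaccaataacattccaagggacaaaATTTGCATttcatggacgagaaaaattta
Tbx3 downstream, POU5F1, chr5:120144210-120144409: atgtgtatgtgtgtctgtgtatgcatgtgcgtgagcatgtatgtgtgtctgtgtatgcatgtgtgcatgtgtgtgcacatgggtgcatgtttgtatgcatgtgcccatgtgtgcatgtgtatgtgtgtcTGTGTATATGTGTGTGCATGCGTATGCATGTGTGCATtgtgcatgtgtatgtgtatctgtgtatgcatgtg
The Klf2 sequence holds ACAAAG at positions 124 to 129 and again at 133 to 138. The Esrrb sequence is a run of CA-rich repeats in which the longest alternating stretch was 17 bp, and its octamer lies inside that run.

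ZIC2 was the TF with the most peaks at the naive genes, and POU3F1 was found at the fewest of them. ZIC2 had 135 peaks in EpiSCs and 104 in activin-free culture, with at least 1 at all 10 genes in both. The background was high, since 93.1% and 92.3% of all protein-coding genes had a ZIC2 peak in windows of this kind. OTX2 had 61 peaks in either culture, at 9 genes in EpiSCs, all but Zfp42, and at 10 genes in activin-free culture, against 93.3% and 95.6% of all genes. SOX2 had 17 peaks at 8 genes in EpiSCs, all but Esrrb and Tbx3, and 37 peaks at 10 genes in activin-free culture, against 75.0% and 85.6% of all genes. For POU5F1 there were 16 peaks at 8 genes, all but Klf2 and Klf4, and 39 peaks at 10 genes, respectively, against 77.3% and 89.5%. POU3F1 had 23 peaks in either culture, at 5 genes each time, against 47.8% and 53.0% of all genes. Thus these shares of the 10 genes were near the share of all genes, and the genes did not stand out by having a peak.

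**Figure D1:**
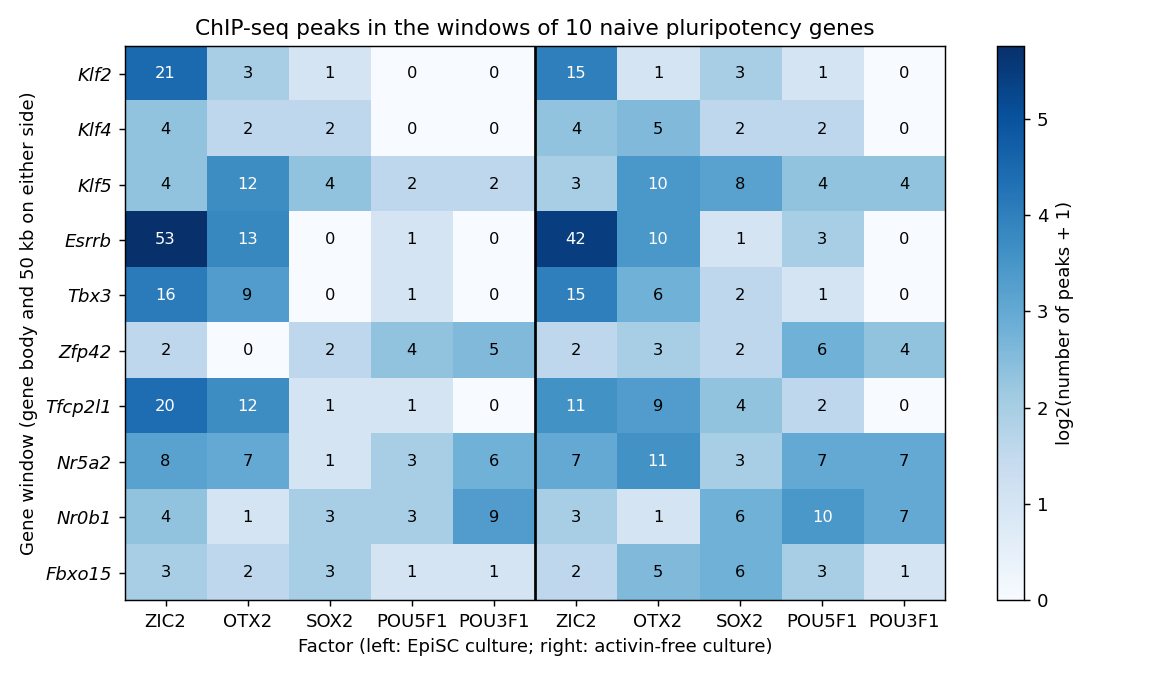
Number of peaks in the window of each gene (rows) in the 10 lists (columns, EpiSC culture on the left and activin-free culture on the right). Colour gives log2 of the count plus 1 and the printed number is the count itself, which ranged from 0 to 53. POU3F1 columns are 0 for Klf2, Klf4, Esrrb, Tbx3 and Tfcp2l1 in both cultures.

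Per length of window, the median naive gene lay below the middle of all genes for ZIC2, OTX2 and POU5F1 and close to it for SOX2. The median gene of the 10 stood at percentile 34.0 of all protein-coding genes by ZIC2 density in EpiSCs, at 24.9 by OTX2, 49.5 by SOX2, 29.4 by POU5F1 and 40.7 by POU3F1 density. In activin-free culture these percentiles were 35.5, 34.9, 49.5, 38.1 and 37.0. With windows of 20 kb in place of 50 kb, the medians for POU5F1 in EpiSCs and for OTX2 and SOX2 in activin-free culture lay above the middle, at 52.2, 51.6 and 66.8. The POU3F1 percentiles include genes without peaks, and the median POU3F1 density in EpiSCs was 0.342 peaks per 100 kb at the naive genes and 0 over all genes. The single genes spread widely around these medians. For ZIC2 in EpiSCs they ran from percentile 18.1 at Zfp42, with 1.79 peaks per 100 kb, to percentile 84.8 at Klf2, with 20.5 peaks per 100 kb, where the median of all genes was 6.80. Nr0b1 had the highest POU3F1 density, with 8.64 and 6.72 peaks per 100 kb in EpiSC and activin-free culture, at percentiles 92.3 and 90.9.

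The genes fell into those with and those without POU3F1 peaks, and the 5 genes with peaks were the same in both cultures. Klf5, Zfp42, Nr5a2, Nr0b1 and Fbxo15 held all 23 POU3F1 peaks of either culture, whereas Klf2, Klf4, Esrrb, Tbx3 and Tfcp2l1 held 0. Fbxo15 was among the 5 through 1 peak in each culture, near the edge of the window and nearer to the start of Cyb5. With windows of 20 kb, or only peaks nearest to the gene's own start, POU3F1 was at 4 genes in each culture. With windows of 100 kb it was at 6 genes in EpiSCs and 5 in activin-free culture. Among the 50000 highest-scoring peaks it was at 4 and 5. ZIC2 peaks were distributed the other way, with 114 of 135 in EpiSCs and 87 of 104 in activin-free culture at the genes that lacked POU3F1. Esrrb alone held 53 and 42 of these, and Klf4, which also lacked POU3F1, had 4 in each culture. Per length the groups met in EpiSCs, with 3.80 to 20.5 ZIC2 peaks per 100 kb at the genes without POU3F1 and 1.79 to 3.84 at those with it, and were apart in activin-free culture, at 3.80 to 16.1 and 1.37 to 3.23. POU5F1 went with POU3F1, having 13 of its 16 EpiSC peaks and 30 of its 39 activin-free peaks at the genes with POU3F1. The base composition of the windows moved with this split. GC content was 38.5% to 44.2% at the 5 genes with POU3F1 and 45.5% to 48.7% at the 5 without, against a median of 44.3% over all windows. Among all protein-coding genes, 15.5% of windows with a GC content of at least 45% and 73.6% of those under 45% held a POU3F1 peak in EpiSCs, and 25.8% and 74.7% did in activin-free culture (the value of 45% was chosen after the GC contents of the genes were seen). The part of base composition in the split was not tested beyond these values.

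**Figure D2:**
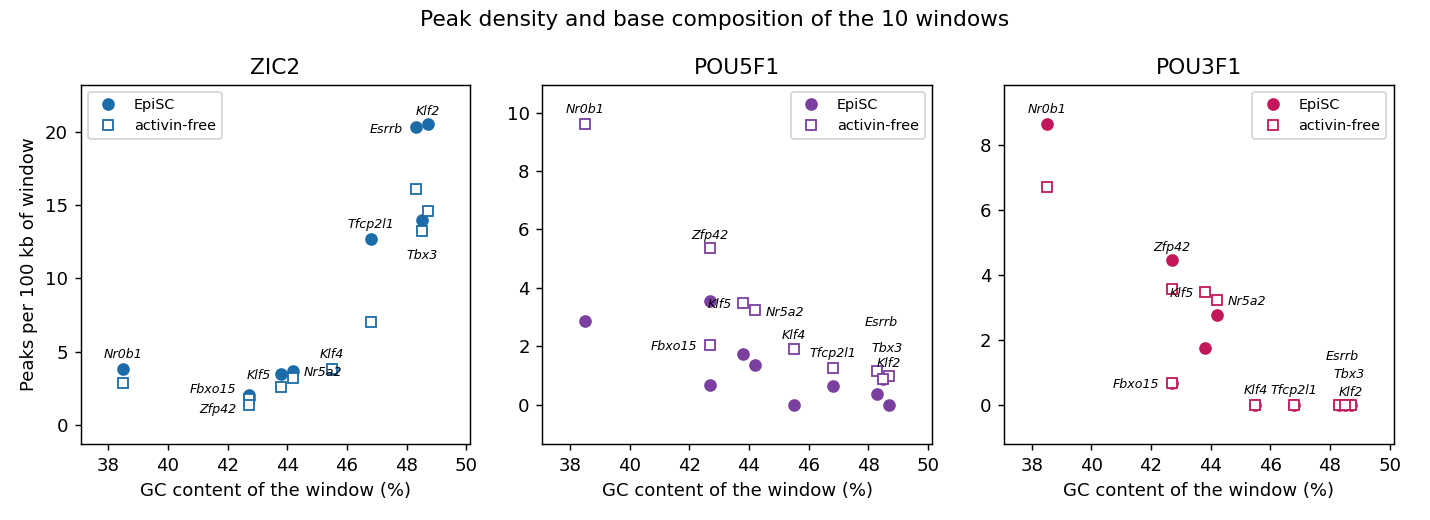
Peaks per 100 kb of window (vertical axis) against the GC content of the window in % (horizontal axis) for ZIC2, POU5F1 and POU3F1, with 1 point for each gene in EpiSCs (filled) and in activin-free culture (open). ZIC2 density reached 20.5 at the GC-rich end, while POU3F1 density was 0 at every gene with a GC content of 45.5% or more.

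Across the 10 genes, Spearman's rho between GC content and density was 0.80 for ZIC2 and -0.87 for POU3F1 in EpiSCs, and 0.89 and -0.88 in activin-free culture. These are descriptions over 10 windows that share the same libraries. For POU5F1 rho was -0.72 in EpiSCs and -0.94 in activin-free culture. SOX2 had a rho of -0.71 in EpiSCs, close to that of POU5F1, and -0.44 in activin-free culture. For OTX2 the values were 0.565 and 0.267.

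At the start sites of the naive genes, ZIC2 was the TF found most often. A ZIC2 peak had its midpoint within 1 kb of an annotated start at 8 of the 10 genes in both cultures, namely at Klf2, Klf4, Klf5, Esrrb, Tbx3, Tfcp2l1, Nr5a2 and Nr0b1, against 67.6% and 66.6% of all genes in EpiSC and activin-free culture. OTX2 had such a promoter peak at 4 genes in each culture, against 29.2% and 24.2%, and Tbx3, Nr5a2 and Fbxo15 were among them both times. SOX2 had 0 in EpiSCs and 2 in activin-free culture, at Tbx3 and Nr5a2, against 8.05% and 12.8%. POU5F1 had 0 in both cultures, against 4.74% and 9.09%, and POU3F1 likewise had 0, against 5.58% and 6.21%. Zfp42 and Fbxo15, the genes without a ZIC2 promoter peak, had a GC content of 48.6% and 44.7% over the 1000 bp around the start. At the other 8 it ranged from 40.3% at Nr5a2 to 69.8% at Klf4. These values were taken around the first annotated start only. Nr5a2 had 2 ZIC2 promoter peaks in each culture, and the GC content at its internal start was not measured.

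**Figure D3:**
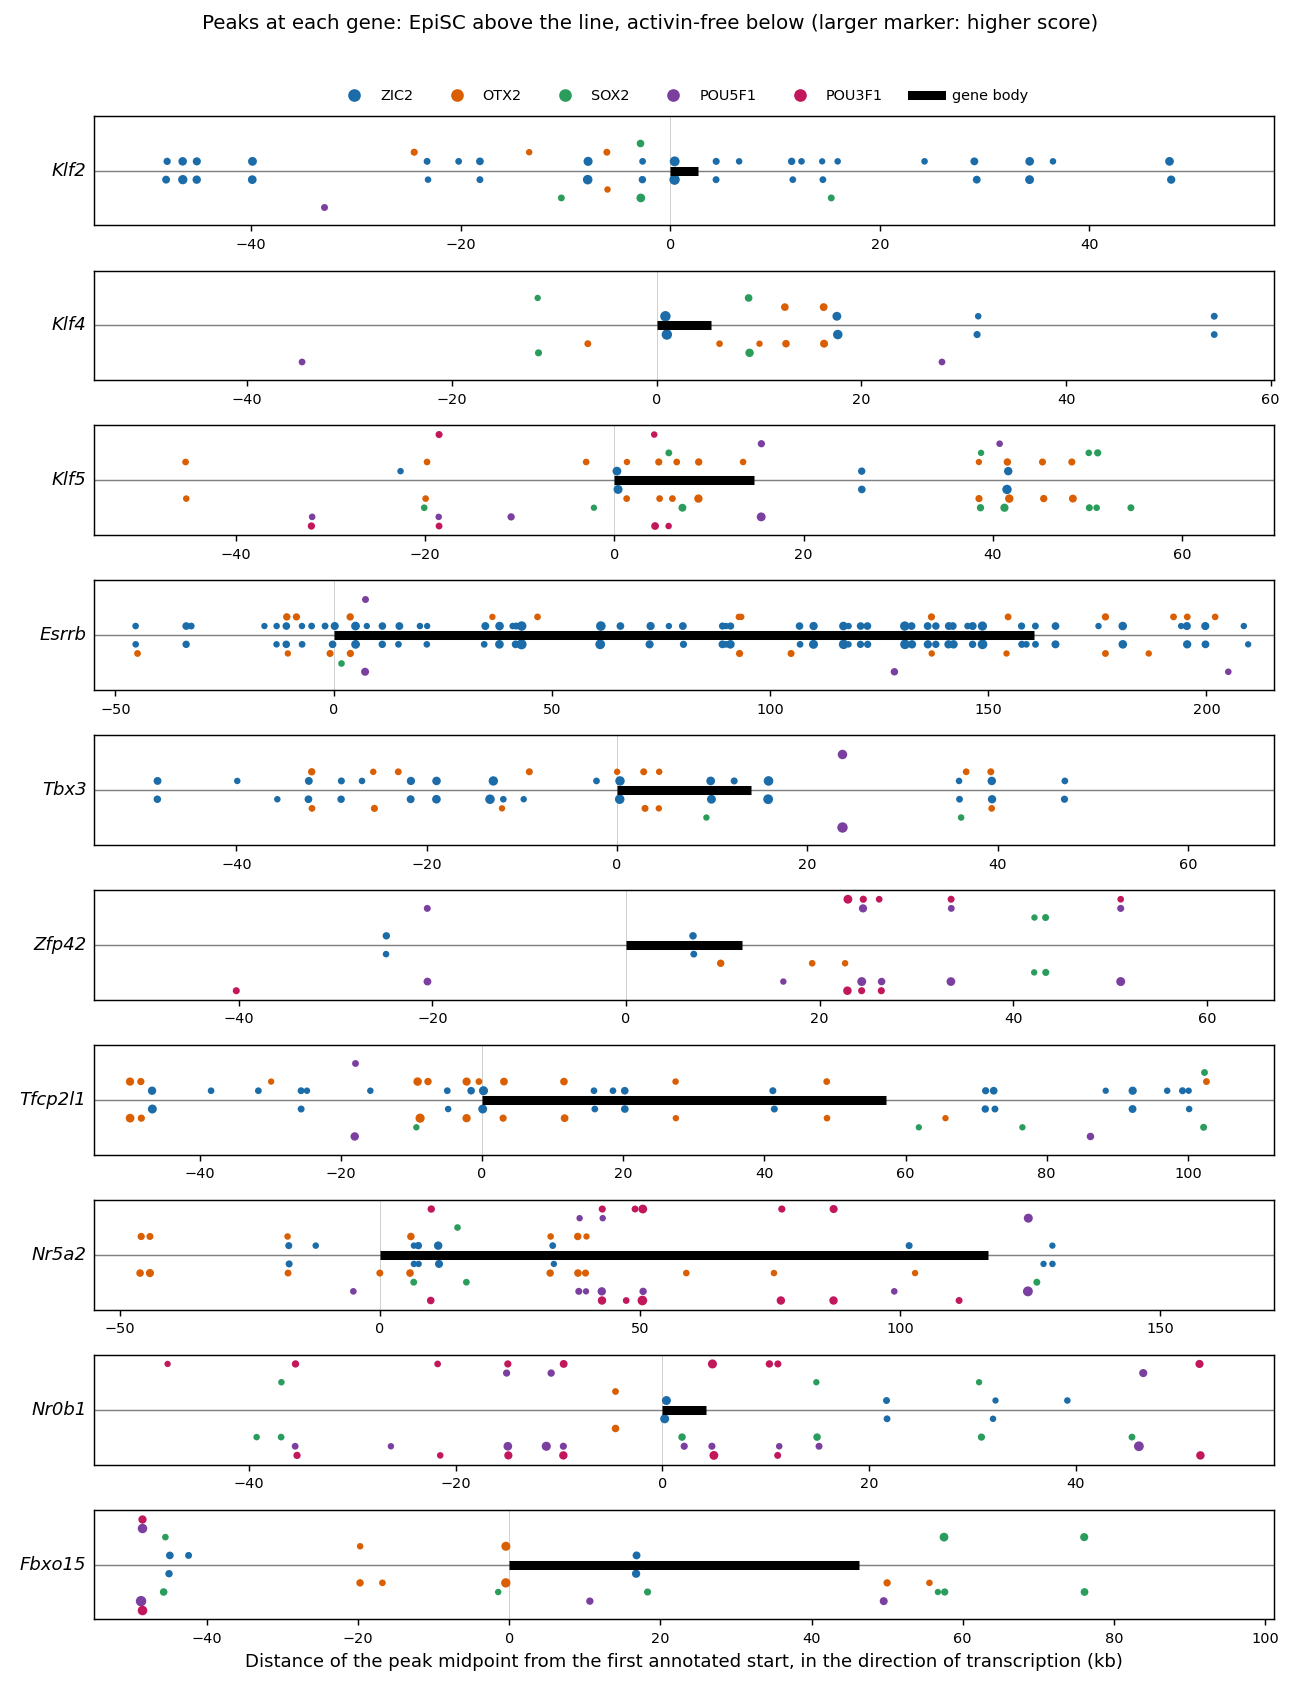
Position of every peak midpoint (horizontal axis, kb from the first annotated start in the direction of transcription) at each gene, with EpiSC peaks above and activin-free peaks below the line, coloured by TF, with larger markers for higher scores and a black bar for the gene body. Esrrb, the longest gene, carries ZIC2 peaks along its length with gaps between them, while Zfp42 and Nr0b1 carry POU5F1 and POU3F1 peaks on the flanks.

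Klf2, Klf4 and Klf5 encode Krüppel-like zinc-finger TFs that can replace one another in embryonic stem cells, and their windows differed in which TFs were present. Klf2 (ENSMUSG00000055148.7, chromosome 8 from 74842932 to 74845555, plus strand) had 21 ZIC2 peaks in EpiSCs and 15 in activin-free culture. The highest, over the promoter, scored 1856.76 and 3053.42 (percentiles 97.0 and 97.4). A SOX2 peak centred 2.90 kb upstream of Klf2 scored 202.7 in EpiSCs and 587.24 in activin-free culture (percentiles 85.3 and 98.2). It overlapped a weak ZIC2 peak of score 84.9 in EpiSCs and 167.49 in activin-free culture, and its midpoint sequence is the one printed above with 2 copies of ACAAAG. Klf2 had no POU5F1 peak in EpiSCs and 1 in activin-free culture, 33.03 kb upstream with a score of 104.08. The neighbourhood of Klf2 is gene-rich, and for 21 of the 45 peaks in its window the nearest start belonged to another gene.

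Klf4 (ENSMUSG00000003032.7, chromosome 4 from 55540013 to 55545347, minus strand), also a reprogramming factor, had the highest-scoring ZIC2 peak among the 10 genes. This peak was 4545 bp wide over the promoter and scored 3121.82 in EpiSCs, rank 97 of 122053, and 3100 in activin-free culture. Beyond it Klf4 had only 3 further ZIC2 peaks in either culture, which placed the gene at percentiles 33.9 and 37.5 for ZIC2 density. The main SOX2 peak of Klf4 lay 8.99 kb downstream of the start and scored 203.59 in EpiSCs and 440.24 in activin-free culture (percentiles 85.5 and 95.7), where it also overlapped a weak OTX2 peak of score 54.68. POU5F1 had no peak at Klf4 in EpiSCs and 2 in activin-free culture, of which the higher scored 87.94, at percentile 22.1.

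Klf5 (ENSMUSG00000005148.7, chromosome 14 from 99697910 to 99712624, plus strand) had few ZIC2 peaks, 4 in EpiSCs and 3 in activin-free culture, but 12 and 10 OTX2 peaks. Its SOX2 peaks numbered 4 and 8, and with 6.97 SOX2 peaks per 100 kb in activin-free culture Klf5 stood at percentile 93.8. All 5 TFs were present in the window in both cultures. The site 41.62 kb downstream of the start, from 99738517 to 99740540, was the only one near a KLF gene with 3 TFs. There the ZIC2 peak scored 440.11 in EpiSCs and 1126.66 in activin-free culture (percentiles 76.0 and 87.4), and the OTX2 peak scored 172.38 and 447.01 (76.2 and 92.0). SOX2 had no listed peak at this place in EpiSCs and one of score 355.6 (percentile 92.7) in activin-free culture. Thus the site had ZIC2 and OTX2 in both cultures, and SOX2 in the activin-free list only. A weak POU5F1 peak from 99738321 to 99738921, listed only in EpiSCs, reached into these coordinates. It scored 72.37 (percentile 21.9) and overlapped no EpiSC peak of another TF.

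Esrrb, Nr5a2 and Nr0b1 encode nuclear receptors. ESRRB is an orphan receptor at the centre of the naive network, NR5A2 can stand in for POU5F1 in reprogramming, and NR0B1 (DAX1) lacks the usual DNA-binding domain and acts as a corepressor. Esrrb (ENSMUSG00000021255.10, chromosome 12 from 87702067 to 87862578, plus strand) had 53 ZIC2 peaks in EpiSCs and 42 in activin-free culture, the most of any gene. It is also the longest gene, but per length its 20.3 and 16.1 peaks per 100 kb still stood at percentiles 84.6 and 79.7. The highest ZIC2 peak in EpiSCs covered an internal promoter 61.22 kb into the gene, with scores of 1369.22 and 1558.10 (percentiles 94.4 and 91.6), and the highest in activin-free culture was an intronic peak 43.05 kb into the gene, with 1215.13 in EpiSCs and 2231.0 there (93.2 and 95.2). Against this the gene had 0 SOX2 peaks in EpiSCs and 1 in activin-free culture, of score 73.97. POU5F1 had 1 peak in EpiSCs, intronic at 7.13 kb with a score of 106.66, and this peak scored 300.38 in activin-free culture (percentiles 40.5 and 60.1), where 2 further POU5F1 peaks were listed. It holds the octamer printed above.

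Nr5a2 (ENSMUSG00000026398.8, chromosome 1 from 138740161 to 138857004, minus strand) had peaks of all 5 TFs in both cultures. POU3F1 had 6 peaks in EpiSCs and 7 in activin-free culture, and the highest of them, in an intron 50.52 kb from the start, scored 629.93 and 1425.10 (percentiles 84.1 and 92.8). The highest POU5F1 peak lay 124.60 kb from the start, beyond the end of the gene, and scored 759.19 and 1826.72 (percentiles 93.9 and 93.0). At an internal promoter 6.0 kb into the gene, from 138850176 to 138851836, ZIC2 and OTX2 overlapped in both cultures. The ZIC2 peak scored 59.11 and 64.15 and the OTX2 peak 185.69 and 201.94 (OTX2 percentiles 78.8 and 72.8), in EpiSC and activin-free culture. SOX2 was listed at this promoter in activin-free culture only, with a score of 96.71, and its printed sequence carries a run of A near the marked bases.

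Nr0b1 (ENSMUSG00000025056.4, chromosome X from 83437103 to 83441286, plus strand) was the gene richest in POU factors, and its window had the lowest GC content. POU3F1 had 9 peaks in EpiSCs and 7 in activin-free culture, and POU5F1 had 3 and 10. The highest POU3F1 peak lay at the end of the gene, 4.85 kb from the start, and scored 789.23 and 669.52 (percentiles 88.6 and 80.0). The highest POU5F1 peak, at 46.52 kb, scored 328.14 in EpiSCs and 1623.3 in activin-free culture (79.0 and 91.7), and its nearest start was that of Mageb4. ZIC2 was at the Nr0b1 promoter in both cultures, with scores of 719.52 and 762.34 (percentiles 85.7 and 81.1). In activin-free culture SOX2 and POU5F1 overlapped at 3 sites of this gene, with SOX2 scores of 93.43 to 186.7. These were the only SOX2–POU5F1 overlaps at the 10 genes. They took in 8.11% of the activin-free SOX2 and 7.69% of the activin-free POU5F1 peaks, against 14.6% and 10.0% in the windows of all genes. In EpiSCs this pair had 0 overlaps, against 7.95% of SOX2 and 7.96% of POU5F1 peaks in the windows of all genes.

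Tbx3 and Tfcp2l1 encode a T-box TF and a member of the grainyhead-related family that acts downstream of LIF and STAT3. Both were genes of ZIC2 and OTX2 with no POU3F1. Tbx3 (ENSMUSG00000018604.11, chromosome 5 from 120120678 to 120134733, plus strand) had 16 and 15 ZIC2 peaks in EpiSC and activin-free culture, the highest 15.92 kb downstream of the start with scores of 1346.29 and 1655.96 (percentiles 94.3 and 92.3). It had 9 and 6 OTX2 peaks. Tbx3 had 0 SOX2 peaks in EpiSCs and 2 in activin-free culture, the higher of score 66.05. Its single POU5F1 peak, 23.63 kb downstream of the start, had one of the highest scores, 1193.94 in EpiSCs and 3100 in activin-free culture (percentiles 97.8 and 98.5). This is the peak whose printed sequence has no octamer and a long alternating stretch.

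Tfcp2l1 (ENSMUSG00000026380.9, listed as Tcfcp2l1 in the annotation, chromosome 1 from 120524522 to 120581744, plus strand) had 20 ZIC2 peaks in EpiSCs and 11 in activin-free culture. All 11 activin-free peaks overlapped EpiSC peaks, and 9 of the 20 EpiSC peaks had no counterpart. The highest OTX2 peak lay 9.11 kb upstream and scored 460.83 and 871.98 (percentiles 96.8 and 98.3), and in activin-free culture it overlapped a weak SOX2 peak of score 53.85. At the promoter a ZIC2 peak scored 812.21 and 676.17 (percentiles 87.7 and 78.8). SOX2 had 1 peak in EpiSCs and 4 in activin-free culture, and the 3 listed only there stood at percentile 8.52 or lower.

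Zfp42 and Fbxo15 are best known as markers and reporters of the naive state. Zfp42 (ENSMUSG00000051176.5, chromosome 8 from 44380422 to 44392363, minus strand) encodes the zinc-finger protein REX1. It had only 2 ZIC2 peaks in each culture, the higher intronic with scores of 188.78 and 99.05 (percentiles 53.4 and 27.8), and 0 OTX2 peaks in EpiSCs against 3 in activin-free culture. POU factors were the main TFs here, with 4 and 6 POU5F1 peaks and 5 and 4 POU3F1 peaks. A pair of POU5F1 and POU3F1 peaks overlapped 24.47 kb downstream of the start in EpiSCs, with scores of 358.7 and 133.76, and again in activin-free culture, with 702.13 and 121.8. By percentile neither stood higher there, at 81.1 and 79.1 for POU5F1 and 36.8 and 31.6 for POU3F1. The POU5F1 peak 51.09 kb downstream of the start scored 117.83 in EpiSCs and 736.92 in activin-free culture (percentiles 44.9 and 80.0), and is the peak shown above with ATGCAAAT.

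Fbxo15 encodes an F-box protein, a substrate adaptor of ubiquitin ligases, and its locus was used as an early reporter of reprogramming. The gene (ENSMUSG00000034391.9, chromosome 18 from 85104550 to 85150768, plus strand) was the only one of the 10 with an OTX2 peak but no ZIC2 peak at the promoter. The OTX2 peak, 0.45 kb upstream of the start, scored 788.14 in EpiSCs and 1061.77 in activin-free culture (percentiles 99.5 and 99.1), the highest OTX2 scores at the 10 genes in both lists. A SOX2 peak 57.53 kb downstream of the start scored 619.48 in EpiSCs, at percentile 99.7, and 137.39 in activin-free culture, at percentile 63.2, the largest difference in that direction among shared SOX2 peaks. A POU5F1 peak and a POU3F1 peak overlapped 48.65 kb upstream, with POU5F1 scores of 1270.26 and 3212.57 (percentiles 98.1 and 99.9) and POU3F1 scores of 367.13 and 1327.33 (70.4 and 91.9). This place lies nearer to the start of Cyb5, and for 13 of the 27 peaks in the Fbxo15 window the nearest start belonged to another gene.

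Between the cultures, SOX2 and POU5F1 had more peaks at the naive genes without activin, ZIC2 had fewer, and OTX2 and POU3F1 had equal numbers. The ratio of activin-free to EpiSC peaks was 2.18 for SOX2 (95% interval 1.20 to 4.12), and 8 genes had more peaks, 2 equal numbers and 0 fewer. For POU5F1 the ratio was 2.44 (1.33 to 4.67), with more peaks at 9 genes and fewer at 0. The ratio for ZIC2 was 0.770 (0.591 to 1.00), with fewer peaks at 8 genes and more at 0. Both OTX2 and POU3F1 had a ratio of 1.00. Over the windows of all protein-coding genes SOX2 had a ratio of 1.35, POU5F1 of 1.95, ZIC2 of 0.895, OTX2 of 1.03 and POU3F1 of 0.901. The intervals of the naive genes included these values. They treat the peaks as independent counts, although most EpiSC peaks were shared between the cultures and 53 and 42 of the ZIC2 peaks lay at Esrrb. For this reason they cannot decide whether the naive genes differed from the rest of the genome. Among the 50000 highest-scoring peaks of each list, the POU5F1 peaks at these genes numbered 14 in EpiSCs and 12 in activin-free culture, so the direction was turned, whereas SOX2 numbered 12 and 22 and ZIC2 49 and 46. With a minimum score of 100 the numbers were 11 and 27 for POU5F1, 6 and 19 for SOX2, and 85 and 71 for ZIC2.

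Most EpiSC peaks at the naive genes overlapped a peak of the same TF in activin-free culture. The share was 72.6% for ZIC2 (98 of 135, 95% Wilson interval 64.5% to 79.4%), against 79.5% of the peaks in the windows of all genes. It was 72.1% for OTX2 (background 77.0%), 88.2% for SOX2 (76.8%), 93.8% for POU5F1 (98.2%) and 82.6% for POU3F1 (81.2%). In the other direction, 95.2% of activin-free ZIC2 peaks overlapped an EpiSC peak (background 92.2%), 68.9% of OTX2 peaks (71.3%) and 78.3% of POU3F1 peaks (86.0%). For SOX2 only 43.2% did (28.7% to 59.1%, background 56.6%), and for POU5F1 38.5% (24.9% to 54.1%, background 49.0%). The all-gene value lay inside the interval of the naive genes in every list except EpiSC ZIC2, where it was just above the upper end.

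**Figure D4:**
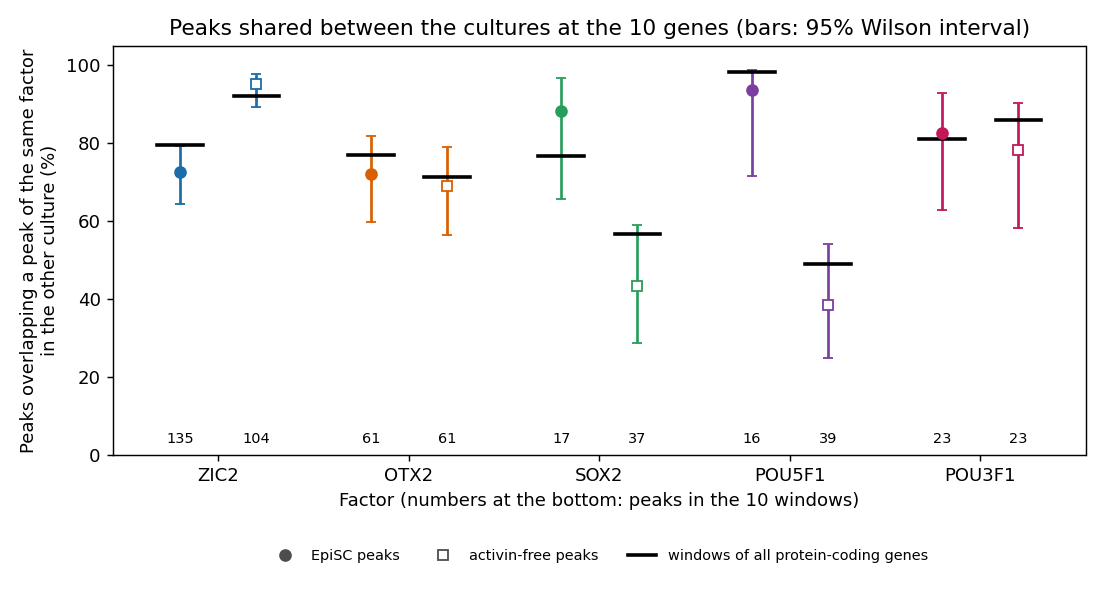
Share of peaks at the 10 genes that overlapped a peak of the same TF in the other culture, in % (vertical axis), for each TF (horizontal axis), with EpiSC peaks as filled circles, activin-free peaks as open squares, 95% Wilson intervals as bars and the share over the windows of all protein-coding genes as black lines. Activin-free SOX2 and POU5F1 peaks had the lowest shares, 43.2% and 38.5%.

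In 9 of the 10 lists, peaks found in a single culture had a lower median percentile than shared ones, and the exception was EpiSC SOX2, with 42.2 for the 2 unshared and 34.2 for the 15 shared peaks. These medians were not computed for the windows of all genes, so the pattern is not shown to be particular to the naive genes. The 37 ZIC2 peaks listed only in EpiSCs had a median percentile of 16.1 and none exceeded 58.3, while the 98 shared peaks had a median of 58.9. Of the 24 POU5F1 peaks listed only without activin, the median percentile was 25.4 and the highest 59.2. The 21 SOX2 peaks listed only without activin had a median of 38.7 and reached 92.7 at the Klf5 site described above. OTX2 had 17 peaks only in EpiSCs, with a median of 39.9 and up to 69.6, and 19 only without activin, with a median of 26.1 and up to 66.4. The remaining unshared peaks, of POU5F1 and POU3F1 in EpiSCs and of ZIC2 and POU3F1 without activin, numbered 1 to 5 in a list and had medians of 5.67 to 26.8. By gene, unshared ZIC2 peaks were most numerous at Esrrb, with 13 of 53 EpiSC peaks, and Tfcp2l1, with 9 of 20. Unshared POU5F1 peaks were most numerous at Nr0b1, with 7 of 10 activin-free peaks. Klf4 and Zfp42 kept every ZIC2 and SOX2 peak in both cultures.

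Among shared peaks, the MACS scores of POU5F1 were higher without activin at every place. All 15 shared EpiSC POU5F1 peaks scored higher in activin-free culture, by a median of 4.08 times (range 1.93 to 7.16), where the score is a p-value on a log scale and depends on depth. In the windows of all genes 98.2% of shared POU5F1 peaks did so. By percentile in the own list, 13 of the 15 stood higher. SOX2 scored higher at 11 of 15 (all genes 71.7%), OTX2 at 25 of 44 (69.6%), POU3F1 at 11 of 19 (57.9%) and ZIC2 at 56 of 98 (56.7%). The median score ratios were 1.48, 1.14, 1.36 and 1.05, respectively. By percentile the direction was turned for 2 of the TFs, since 38 ZIC2 peaks stood higher and 59 lower without activin, and 19 OTX2 peaks higher and 25 lower. SOX2 stood higher at 10 and lower at 5, and POU3F1 higher at 11 and lower at 8.

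**Figure D5:**
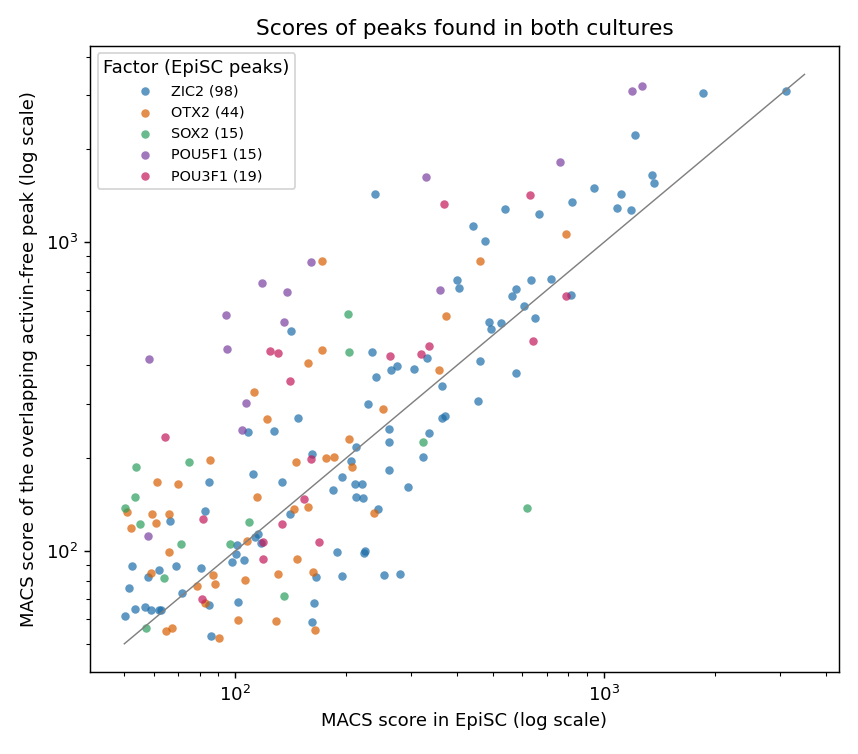
MACS score of each EpiSC peak at the 10 genes that was shared between cultures (horizontal axis, log scale) against the score of the overlapping activin-free peak (vertical axis, log scale), coloured by TF, with a line of equal scores. All 15 POU5F1 points lie above the line, while the 98 ZIC2 points lie on both sides of it.

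At the naive genes, overlap of different TFs within a culture lay below the all-window share for most pairs of TFs. Only ZIC2 with SOX2 in activin-free culture lay above it by both lists. There 6 pairs made up 5.77% of ZIC2 and 16.2% of SOX2 peaks, against 4.77% and 8.41% over all windows. ZIC2 with OTX2 in both cultures lay above it by the share of OTX2 peaks alone, and ZIC2 with SOX2 in EpiSCs by that of SOX2 peaks alone. ZIC2 and OTX2 overlapped in 13 pairs in EpiSCs, at Klf5, Esrrb, Tbx3, Tfcp2l1 and Nr5a2. These were 9.63% of the ZIC2 and 21.3% of the OTX2 peaks, against 15.7% and 19.5% over all windows. In activin-free culture there were 11 pairs, 10.6% of ZIC2 and 18.0% of OTX2 peaks, against 13.2% and 13.9%, and none of them was at Tfcp2l1. POU5F1 and POU3F1 overlapped in 6 pairs in EpiSCs, at Zfp42, Nr5a2, Nr0b1 and Fbxo15, or 37.5% of POU5F1 and 26.1% of POU3F1 peaks (all windows 45.9% and 30.4%). They overlapped in 13 pairs in activin-free culture, now also at Klf5, or 33.3% and 52.2% (40.7% and 57.1%). ZIC2 and POU3F1 never overlapped at these genes in either culture, where 0.900% and 1.58% of ZIC2 peaks did so over all windows. SOX2 and POU3F1 had 0 overlaps in both cultures, although 16.0% and 14.6% of SOX2 peaks overlapped POU3F1 over all windows.

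Sites were formed by joining overlapping peaks of any TF. Of the EpiSC sites, 200 had a single TF and 26 had 2 TFs, and none had 3 or more. In activin-free culture 179 had a single TF, 39 had 2 and 2 had 3, the latter being the Klf5 and Nr5a2 sites of ZIC2, OTX2 and SOX2. A site of 3 or more TFs was present in the windows of 34.5% of all genes in EpiSCs and 49.1% in activin-free culture, against 0 and 2 of the 10 naive genes.

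The short sequences of the TFs were searched for on both strands within 100 bp of the peak midpoints. GGATTA was found at 31.1% of the OTX2 peaks in EpiSCs (20.9% to 43.6%) and 26.2% in activin-free culture, against 23.5% and 21.7% of all OTX2 peaks and 8.98% and 8.47% of windows of the same size 1000 bp to the side of all peaks. CAGCAGG was found at 14.8% and 15.4% of the ZIC2 peaks (all ZIC2 peaks 19.0% and 20.9%, side windows 6.32% and 6.41%). ACAAAG or ACAATG was found at 64.7% and 54.1% of the SOX2 peaks (57.2% and 55.3%, side windows 29.9% and 29.3%). An octamer was found at 12.5% and 10.3% of the POU5F1 peaks (18.5% and 13.5%, side windows 3.26% and 3.31%) and at 8.70% of the POU3F1 peaks in either culture (8.81% and 9.30%, side windows 3.57% and 3.50%). The POU5F1 and POU3F1 searches used the same pair of octamers, which share their first 5 letters. Most ZIC2, OTX2 and POU peaks at the naive genes thus lacked these exact letters in the searched window.

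Several of the strongest POU5F1 peaks at these genes lay on alternating stretches, here runs of 20 bp or more with a purine at every other base and pyrimidines between. These were 4 of the 16 EpiSC peaks, at Tbx3, Zfp42, Nr5a2 and Fbxo15, and 11 of the 39 activin-free peaks, where the share over the whole lists was 29.6% and 21.4%. The 3 highest POU5F1 scores in EpiSCs, at Fbxo15, Tbx3 and Nr5a2, were all among them. The share among the highest-scoring POU5F1 peaks of the whole list was not measured, so this is not shown to be particular to these genes. POU3F1 had 1 of 23 and 6 of 23 such peaks (4.13% and 5.03% of the lists). Every such activin-free POU3F1 peak overlapped an EpiSC POU3F1 peak, so the higher number did not come from new places. At a shared POU3F1 peak of Klf5 the longest stretch was 8 bp in EpiSCs and 29 bp without activin. At the shared POU5F1 peak of Tfcp2l1 it was 12 and 27 bp. The stretch found thus varied with the exact peak position, and these numbers do not compare the cultures. Without these peaks POU5F1 remained at 6 genes in EpiSCs and at 8 in activin-free culture, and POU3F1 at 4 genes in each.

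A list of 10 other genes of the naive state (Nanog, Prdm14, Dppa3, Dppa5a, Gbx2, Stat3, Socs3, Tet2, Pecam1 and Fgf4) had ZIC2 and OTX2 peaks at every gene in both cultures, with the windows of Nanog and Dppa3 in part the same. Its genes had 161 and 150 ZIC2 peaks, but only 9 and 18 POU5F1 peaks at 6 and 7 genes and 2 and 4 POU3F1 peaks at 2 and 3 genes. A list of 10 genes of the primed state (Fgf5, Dnmt3a, Dnmt3b, Sox3, Cdh2, T, Eomes, Foxa2, Cer1 and Lef1) had 51 and 78 POU5F1 peaks and 48 and 51 SOX2 peaks, each at all 10 genes, and 52 and 57 POU3F1 peaks at 5 and 7 genes. Single primed genes carried much of these totals, with up to 35 and 37 POU3F1, 20 and 30 POU5F1, and 24 and 15 SOX2 peaks at 1 gene. The median density of POU5F1 peaks in EpiSCs was 0.780 per 100 kb at the naive genes described here, 0.600 at the other naive genes and 2.40 at the primed genes, where the median of all genes was 1.43. For ZIC2 in EpiSCs the same medians were 3.82, 10.6 and 11.1, against 6.80 for all genes.

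By the pattern of peak counts over the 10 lists, Esrrb and Tbx3 were most alike (Spearman's rho 0.97 over 10 lists), followed by Tfcp2l1 with Tbx3 (0.96) and Klf2 with Tfcp2l1 (0.91). The lists differ in general level, with all-gene medians in EpiSCs of 6.80 ZIC2 and 0 POU3F1 peaks per 100 kb. Any genes that follow this order have a high rho, and no rho for genes outside the 10 is given here. Zfp42 and Nr0b1 were each most like the other, at a lower rho of 0.67. The highest rho of Klf5, 0.64 with Fbxo15, was close to this value. Nr5a2 was most like Esrrb (0.67), Fbxo15 most like Klf4 (0.71) and Klf4 most like Tfcp2l1 (0.80). The matches of Nr5a2 and Fbxo15 thus joined genes with and without POU3F1 peaks.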

How the data were processed

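Reads were aligned by the authors to the mm9 genome through Bowtie2, and MACS1.4 was run on each library with input DNA as the control, default settings and a band width of 150 bases. The deposited lists give each peak's position and a score, -10 log10 of the p-value. They hold no read counts or normalization. The input library was not used here. All peaks of the 10 lists on chromosomes 1 to 19, X and Y were used. Genes, transcript starts and sequence came from GENCODE vM1 and NCBIM37, the same build. Tfcp2l1 was found through its RefSeq synonym Tcfcp2l1. Peaks were assigned by midpoint, overlaps counted from 1 shared bp, and densities compared with all protein-coding genes. Intervals for shares are Wilson intervals and those for ratios are exact conditional binomial intervals. With 1 library per group no test was made. The overlap steps were tested on simulated lists with planted overlaps.

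The genes, the other gene lists and the alternatives were chosen with earlier results of these data known. For each gene the text names the highest-scoring peaks of a TF in each culture and the sites with the most TFs, and other named peaks were picked once their values were known. The alternatives were a minimum score of 100, the 50000 highest-scoring peaks, windows of 20 kb and 100 kb, only peaks nearest to the gene's own start, overlap of 50% of both peaks, midpoints within 250 bp and a search window of 250 bp. Calculations used Python 3.11.15 with numpy 2.4.6, pandas 2.3.3, scipy 1.17.1, pysam 0.24.0 and matplotlib 3.10.9.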

Additional observations from a re-analysis of the deposited data

How the results depend on the processing

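Of the 240 values recomputed under the alternatives, 195 stayed within 1.5 times the value reported or within its interval, and 45 did not. Restricting windows to peaks nearest to the gene's own start, counting shared peaks by midpoints within 250 bp, and leaving out POU peaks at alternating stretches (added after the data were seen) moved none.

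With a minimum score of 100, peaks at the 10 genes numbered 85 for ZIC2, 30 for OTX2 and 6 for SOX2 (at 5 genes) in EpiSCs, and 31 for OTX2 and 19 for SOX2 in activin-free culture. ZIC2–OTX2 pairs numbered 5 and 2 in the respective cultures, POU5F1–POU3F1 pairs 3 in EpiSCs, and sites of 3 TFs 1 in activin-free culture. The share found in the other culture became 80% for EpiSC ZIC2, 100% for EpiSC POU5F1 and 26.3% for activin-free SOX2.

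When every list was cut to its 50000 highest-scoring peaks, there were 49 ZIC2, 29 OTX2 and 7 POU3F1 peaks in EpiSCs, and 46 ZIC2, 25 OTX2, 22 SOX2, 12 POU5F1 and 11 POU3F1 peaks in activin-free culture. ZIC2–OTX2 pairs fell to 3 and 1, POU5F1–POU3F1 pairs to 1 and 4, and sites of 3 TFs to 1. The shared part was 85.7% for ZIC2 and 100% for POU3F1 in EpiSCs, and 91.7% for activin-free POU5F1. These lists hold fewer peaks by construction. The longer activin-free POU5F1 list is the one cut most.

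Windows of 20 kb gave a median density percentile of 38.9 for OTX2 and 52.2 for POU5F1 in EpiSCs, and shares of 93.8% for POU3F1 and 100% for POU5F1 in EpiSCs and 28.6% for SOX2 in activin-free culture. Windows of 100 kb gave percentiles of 31.8 for SOX2 and 49.0 for POU5F1 in EpiSCs. Requiring 50% of both peaks left 6 and 5 ZIC2–OTX2 pairs and 1 site of 3 TFs in activin-free culture. Searching 250 bp on either side, a wider target, found the short sequence at 30.4% and 30.8% of ZIC2, 52.5% and 47.5% of OTX2, and 88.2% and 78.4% of SOX2 peaks.

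Depth is unknown, there is 1 library per group, and the TFs were added and tagged, so differences between lists cannot be told apart from differences between libraries.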
